A study of Mus musculus with 3 samples.

Results

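The 10 genes described here encode the TGF-beta ligands (Tgfb1, Tgfb2, Tgfb3), their receptors (Tgfbr1, Tgfbr2, Tgfbr3), the latent TGF-beta binding proteins Ltbp1, Ltbp2 and Ltbp3, and the matrix protein Tgfbi. They were chosen by symbol out of 36530 features of the count tables, and all 10 were found, each as 1 feature. Single-cell messenger RNA counts came from 3 melanomas of mice. The untreated animal received no drug, and the others were given vemurafenib, which blocks mutant Braf kinase, by oral gavage, and their tumors are labelled as regressed and as progressed under it. The study's mice, all on C57BL/6, carried Braf LSL.V600E and Tyr.CreER among their alleles, and some also carried Rosa26 LSL.tdTomato. The untreated tumor thus had the same melanoma alleles as the treated ones. Cre was driven by the tyrosinase promoter of the melanocyte lineage and was switched on with 4-OH tamoxifen on flank skin at 8 to 12 weeks of age, so the recombination was limited to cells that use that promoter. The labels give neither the reporter genotype nor the time on drug of each animal. The paper describes its single-cell tumors as naive, treated with vemurafenib for 12 days, and progressed on it. Each group was 1 tumor, so the comparisons below are between tumors, with no test between treatments.

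TGF-beta is secreted in a latent form, in which the mature dimer stays wrapped in its own propeptide. In most cells that propeptide is joined to a latent TGF-beta binding protein, which tethers the complex to fibrillin and fibronectin in the extracellular matrix until integrins, thrombospondin or proteases release the ligand. Free ligand binds the type II receptor (Tgfbr2), which recruits and phosphorylates the type I receptor (Tgfbr1), and SMAD proteins carry the signal to the nucleus. Betaglycan (Tgfbr3) presents ligand, above all the product of Tgfb2, to the signaling receptors. In skin and tumors the pathway is known for driving matrix production by fibroblasts and for restraining T cells. Tgfbi, a secreted protein that binds collagen and integrins, is a classical target of the pathway.

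The stretches before a transcript start of Tgfb1 and of Tgfb2 are shown because these ligands differed in where they were read, Tgfb1 in all cell types and Tgfb2 mainly in tumor cells, vessels and stroma. Both run 5′ to 3′ over the 150 bases before a RefSeq transcription start, on build GRCm38.p6. Tgfb1 lies at chr7:25686852-25687001 on the plus strand, and Tgfb2 at chr1:186705990-186706139 on the minus strand. The Tgfb2 start used by RefSeq's promoter table is internal, since the annotated gene reaches to base 186709697 on that strand. Capitals mark a GC box (GGGCGG), an E-box (CACGTG) or a TATA box (TATAAA), which do not overlap here. Each motif was sought on both strands.
Tgfb1: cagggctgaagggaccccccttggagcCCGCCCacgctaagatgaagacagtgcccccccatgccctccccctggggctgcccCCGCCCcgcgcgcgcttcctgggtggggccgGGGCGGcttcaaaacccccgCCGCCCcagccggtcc
Tgfb2: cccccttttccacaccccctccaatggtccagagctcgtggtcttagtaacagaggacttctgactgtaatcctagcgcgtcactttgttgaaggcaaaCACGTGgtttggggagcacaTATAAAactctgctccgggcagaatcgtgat
The Tgfb1 stretch held 4 GC boxes and neither of the other motifs, and 76% of its bases were G or C. The Tgfb2 stretch held a TATA box at position -31 and an E-box at position -51 from the start, no GC box, and 51.3% G or C. Over 250 bases upstream, 32.7% of 32851 RefSeq promoters held a GC box, 12.4% a TATA box and 6.02% an E-box, on either strand. A match of letters is a description and no evidence of binding. The Tgfb2 window overlaps an annotated antisense gene, Gm29491, whose reads the sense counting kept apart.

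The tables held 4095, 3726 and 4849 cells of the untreated, regressed and progressed tumor, with median depths of 4496, 2658 and 4566 UMIs per cell (unique molecular identifiers, each a counted transcript). Levels are given as CPM, a gene's UMIs divided by all UMIs of a group of cells and scaled to 1000000, in the order untreated, regressed and progressed unless stated, with exact Poisson 95% intervals that cover counting error only. Clusters are ranked over groups of at least 20 cells in 1 tumor, and smaller groups are given with their number of cells. The 25 deposited cluster names were used. In 21 of 22 named clusters the summed markers of the named cell type lay above those of every group with another name. The exception was Monocytes2 (1363 to 2852 CPM of macrophage and monocyte markers, against up to 1560 CPM elsewhere), which held the dendritic cell gene Flt3 at 122, 163 and 90.9 CPM. The stroma clusters carried fibroblast genes, and few were shared by the tumors. Stroma10 and Stroma9 made up 80.1% and 16.2% of the regressed stroma cells, with at most 7 cells in either of the other tumors, so cluster and tumor cannot be told apart there. The regressed library also stood apart in sex-linked transcripts. It held Xist at 0.403 CPM, against 1494 and 1735 CPM, and the Y-linked Ddx3y at 87.4 CPM, against 0.811 and 1.15 CPM. Comparisons with it thus also set a male pattern of these transcripts against a female one, and sex cannot be told apart from treatment there. Haemoglobin was higher in this library too (Hbb-bs 13269 CPM, against 942 and 31.0 CPM). Its cluster Tumor2, 349 of its 410 tumor cells, had a median of only 768 UMIs per cell.

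Fibroblast transcripts were also read in cells of other types. In immune cells, Col1a1, Col1a2, Col3a1, Dcn and Lum read at 6.92 to 8.86% of their stroma level in the untreated tumor, 8.39 to 14.9% in the regressed tumor and 6.88 to 9.10% in the progressed tumor. Over 24 named groups of non-stroma cells (a cluster in 1 tumor, at least 20 cells), the lower bound of Tgfb1 relative to its stroma level lay above the highest of these fibroblast genes in 24 groups. The same held for Tgfbr2 in 23 groups, Tgfbr1 in 22 and Tgfbi in 14. Ltbp3 did so in 9 groups, Tgfbr3 in 7, Tgfb2 in 6, Tgfb3 in 4, and Ltbp1 and Ltbp2 in 2 each. In most groups outside stroma, the lower bounds of the last 6 genes were thus not above what fibroblast genes reach there. Groups with few UMIs could hardly pass, so for such values own expression and fibroblast RNA cannot be told apart. This measure gauges RNA from fibroblasts only, so it cannot show that a gene read in many cell types is above RNA from other cells. Erythrocytes of the regressed tumor read 25.4 CPM of Tgfb1 and 9.76 CPM of Tgfbr1, beside 93.2 and 47.2 CPM in its stroma. Haemoglobin genes took up 486662 CPM of these Erythrocytes. RNA from other cells is thus diluted there, and its CPM may understate that in other clusters.

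**Figure D1:**
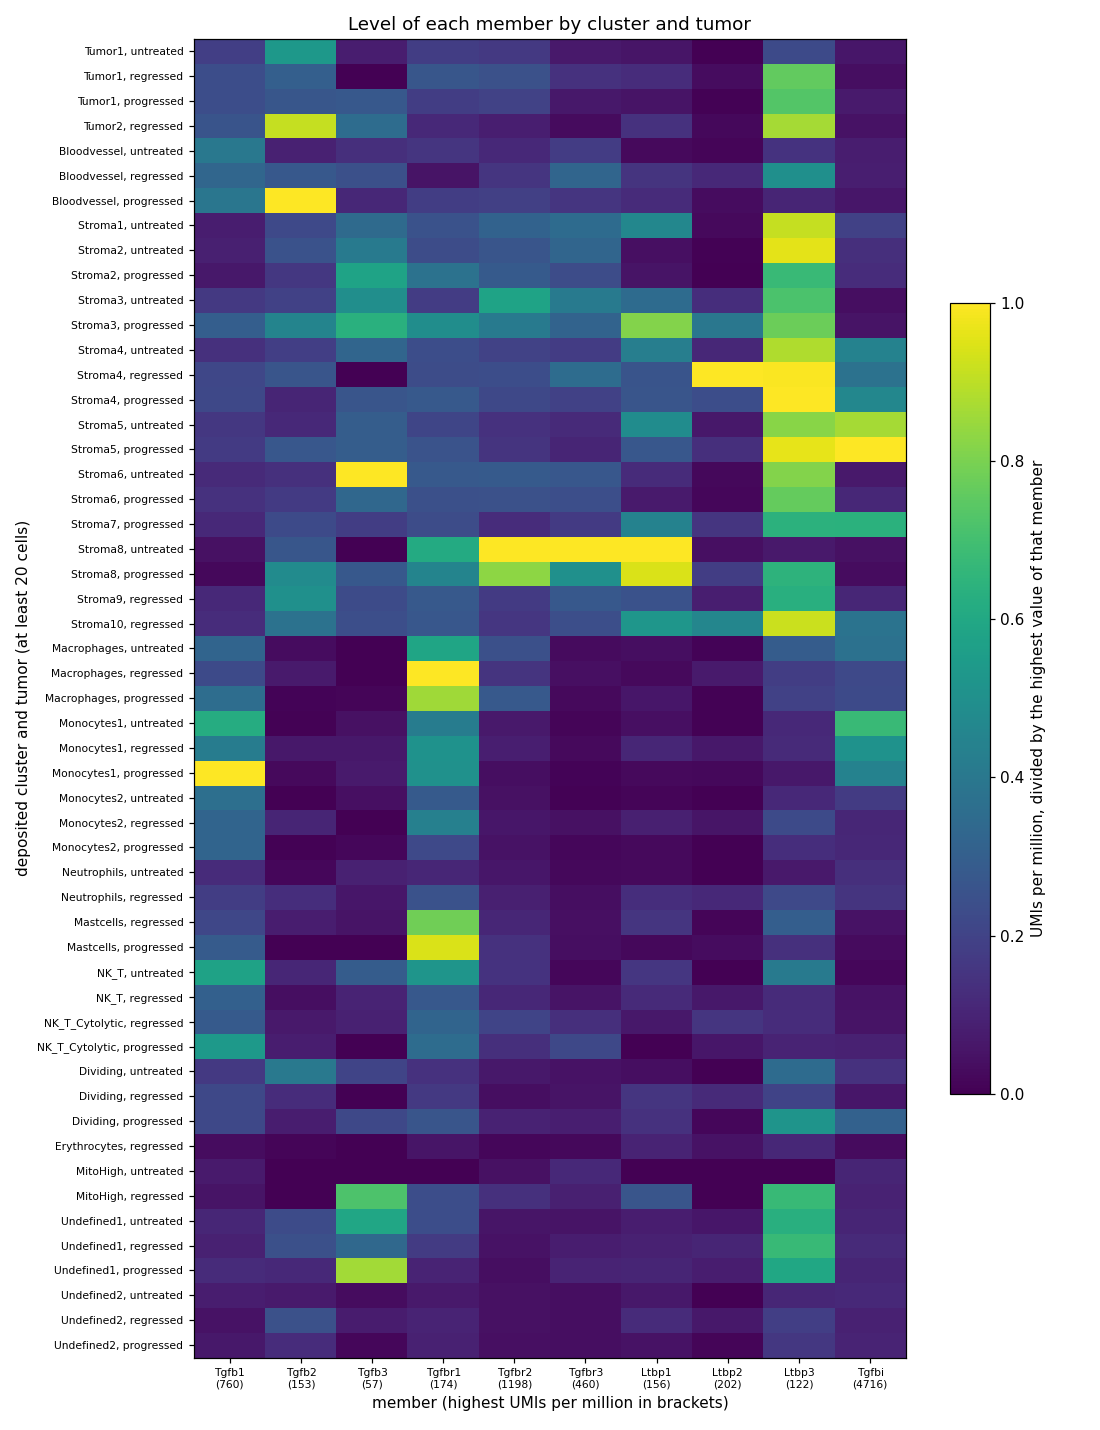
Level of each of the 10 genes (columns) in 53 groups of at least 20 cells, a deposited cluster in 1 tumor (rows), as CPM divided by that gene's highest value, which stands in brackets. Tgfb1 is highest in Monocytes1, Tgfb2 in Tumor2 and in Bloodvessel of the progressed tumor, Tgfbr2, Tgfbr3 and Ltbp1 in Stroma8, Ltbp2 in Stroma4 and Stroma10 of the regressed tumor, and Tgfbi in Stroma5.

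Among the ligands, Tgfb1 (chr7:25687002-25705077), the main isoform of leukocytes, was read in every named cell type. Monocytes1 held 471, 318 and 759.7 CPM (intervals 431 to 513, 281 to 359 and 655 to 876). The regressed tumor was thus lowest and the progressed tumor highest, with no overlap of the intervals. NK_T cells held 438 CPM in the untreated and 234 CPM in the regressed tumor, and Bloodvessel cells 304, 252 and 299 CPM. Macrophages held 245, 171 and 271 CPM. By mean over tumors Monocytes1 came first, followed by NK_T, NK_T_Cytolytic and Bloodvessel, but the ranges over tumors of neighbours in this order overlapped in all but 4 of 24 pairs. The stroma clusters were lower, from 49.5 CPM in Stroma2 to 228 CPM in Stroma3, both of the progressed tumor, apart from Stroma8 with 32.8 and 15.8 CPM in the untreated and progressed tumor (4 and 3 UMIs). Erythrocytes of the regressed tumor, which should lack these genes, read 25.4 CPM, a value diluted by haemoglobin. They held 13 UMIs in 60 cells, beside 41 UMIs in 216 regressed Neutrophils (138 CPM). Their CPM is therefore no like reference for RNA from other cells.

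Tgfb2 (chr1:186622787-186709697), an isoform made by epithelial, neural crest and mesenchymal cells, was highest in Bloodvessel cells of the progressed tumor, at 153 CPM (97.9 to 227), and in cluster Tumor2 of the regressed tumor, at 139 CPM (107 to 179), 2 values whose intervals overlapped. Tumor1 held 81.6, 46.3 and 41.0 CPM, from 18, 7 and 34 UMIs, and these 3 intervals overlapped. Bloodvessel cells of the untreated and regressed tumor read 14.1 CPM (7.05 to 25.3) and 42.0 CPM (19.2 to 79.7), below the progressed ones. Of the 24 progressed Bloodvessel UMIs, 8 lay in 1 cell, and without it the level was 118 CPM, under the 139 CPM of Tumor2. Stroma groups of at least 20 cells ranged from 15.8 CPM (Stroma4, progressed) to 76.7 CPM (Stroma9, regressed), and 18 regressed Stroma8 cells read 126 CPM (57.4 to 238) from 9 UMIs. The regressed clusters Stroma9 and Stroma10 (57.4 CPM) were higher than the stroma groups of the other tumors except Stroma3 and Stroma8 of the progressed tumor (68.9 and 73.6 CPM). In Monocytes2 no Tgfb2 UMI was found in the untreated tumor, with an interval of up to 8.64 CPM, and 1 was found in the progressed tumor.

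Tgfb3 (chr12:86056743-86079041), an isoform of mesenchyme and epidermis, was sparse, with 925 UMIs over 12670 cells. It was highest in Stroma6 of the untreated tumor at 57.0 CPM (37.5 to 82.9), where the same cluster of the progressed tumor held 19.0 CPM (15.6 to 22.9). Of the 27 untreated UMIs, 10 lay in 1 cell, and without it the level was 36.5 CPM, below Undefined1 of the progressed tumor. Undefined1, a cluster with no cell type name, followed with 33.8, 19.4 and 49.0 CPM. Immune cells held 15, 9 and 4 UMIs in all, 3.33, 3.12 and 1.33 CPM.

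Of the receptors, Tgfbr2 (chr9:116087695-116175363), which binds the ligand, was highest in stroma. The small cluster Stroma8 held 1198 CPM in 23 untreated cells, 502 CPM in 18 regressed cells and 994 CPM in 21 progressed cells. Stroma3 came next with 696 and 488 CPM in the untreated and progressed tumor, above Stroma1 (378 CPM, untreated). Its range overlapped neither that of Stroma1 nor that of Stroma8 over groups of at least 20 cells, but it held the value of the 18 regressed Stroma8 cells. At the other end of the stroma order stood Stroma5 (172 and 182 CPM) and Stroma7 (153 CPM, progressed). Outside stroma, Macrophages held 291, 182 and 337 CPM and Tumor1 199, 298 and 237 CPM, while Tumor2 held 98.9 CPM. Monocytes1, the cluster with the most Tgfb1, had 83.6, 102 and 44.2 CPM of this receptor, and of the immune clusters only Monocytes2 had a lower mean.

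Tgfbr1 (chr4:47353222-47414926), the kinase that phosphorylates SMAD proteins, was highest in 2 immune clusters. Mastcells held 137 and 165 CPM in the regressed and progressed tumor, and Macrophages 102, 174 and 149 CPM. These ranges overlapped each other, and that of Macrophages also overlapped that of Stroma8 (107 and 78.9 CPM, untreated and progressed). The stroma groups other than Stroma2, Stroma3 and Stroma8 lay between 36.4 CPM (Stroma5, untreated) and 48.5 CPM (Stroma4, progressed). Tumor2 held 20.2 CPM, from 9 UMIs.

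Tgfbr3 (chr5:107106567-107289629), the co-receptor betaglycan, had the same leading clusters as Tgfbr2. Stroma8 led with 459.6, 460.3 and 231 CPM, ahead of Stroma3 (188 and 147 CPM, untreated and progressed) and Stroma1 (161 CPM, untreated). Bloodvessel cells held 82.2, 149 and 70.0 CPM. Of the immune clusters, NK_T_Cytolytic held 61.6 and 98.8 CPM in the regressed and progressed tumor, and the others at most 24.2 CPM. Of all pairs among the 10 genes, Tgfbr2 and Tgfbr3 had the highest correlation over the 53 groups (Pearson r = 0.72 of log2(CPM + 1)). These groups share libraries.

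Transcripts of both signaling receptors were found together in 43.5% of 23 untreated and 52.4% of 21 progressed Stroma8 cells. The share was 17.6, 9.09 and 22.7% in Macrophages, at median depths of 3429, 1388 and 3450 UMIs, and 13.9, 6.88 and 13.5% in stroma as a whole. In Erythrocytes of the regressed tumor, at a median of 8465 UMIs, it was 1.67% (1 of 60 cells). In Tumor2 it was 0.287% (1 of 349 cells), at the median of 768 UMIs. These shares follow depth as well as expression, so the order of tumors within a cell type was not read from them.

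The latent TGF-beta binding proteins were highest in stroma clusters. Ltbp1 (chr17:75005480-75392512), which anchors latent ligand in matrix, was highest in Stroma8 over groups of at least 20 cells, with 156 and 147 CPM in the untreated and progressed tumor. Of the smaller regressed groups, 18 Stroma8 cells read 139 CPM (66.9 to 257) and 12 Stroma3 cells 189 CPM (76.2 to 390.3), the latter from 7 UMIs. Stroma2 and Stroma6 formed the low end of the stroma clusters, at 6.46 CPM in the untreated and 11.1 CPM in the progressed tumor, although they were the largest stroma clusters of those tumors. In the regressed tumor Stroma10 held 81.7 CPM and Stroma9 39.1 CPM. Stroma1 of the untreated tumor supplied 32.7% of that tumor's Ltbp1 UMIs with 13.3% of all its UMIs.

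Ltbp2 (chr12:84783212-84876558), a family member that sits in elastic microfibrils and, unlike the others, is not known to bind the latent ligand, gave the largest ratios between tumors in stroma, as shown further on. Stroma10, the main regressed cluster, held 92.8 CPM (84.5 to 102) and supplied 79.7% of that tumor's Ltbp2 UMIs with 39.1% of all its UMIs. Stroma4 held 22.5 CPM (17.1 to 29.1), 202 CPM (65.6 to 471) and 47.7 CPM (40.9 to 55.3), where the regressed value rests on 5 UMIs in 20 cells. In Stroma3 it read 26.7 and 79.8 CPM in the untreated and progressed tumor. Stroma2, the largest untreated cluster, held only 7 UMIs in 1144 cells (1.19 CPM), and Stroma6, the largest progressed cluster, 3.51 CPM.

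Ltbp3 (chr19:5740900-5758536), which binds latent ligand, was read at like levels across stroma. The stroma clusters lay between 76.7 CPM (Stroma9, regressed) and 122 CPM (Stroma4, progressed), apart from Stroma8 of the untreated tumor with 1 UMI. Tumor2 reached 106 CPM, within the stroma range. Undefined1 held 76.8, 82.2 and 72.6 CPM, and Macrophages 35.5, 22.3 and 23.7 CPM.

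Tgfbi (chr13:56609586-56639359) was highest in some stroma clusters and in Monocytes1. Stroma5 held 4088 CPM (3980.1 to 4199) in the untreated and 4716 CPM (4659 to 4774) in the progressed tumor, Stroma7 3006 CPM in the progressed tumor and Stroma4 2094, 1778 and 2177 CPM. In contrast, Stroma3 and Stroma8, the clusters with the most Tgfbr2, held 181 and 205 CPM in the untreated and 254 and 152 CPM in the progressed tumor. Monocytes1 held 3191, 2396 and 2098 CPM and Macrophages 1753, 1039 and 1066 CPM, with the untreated tumor highest in both. Erythrocytes of the regressed tumor read 131 CPM, which haemoglobin dilutes as for Tgfb1, so it is no like reference for other cell types. All coordinates are of GRCm38.p6.

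**Figure D2:**
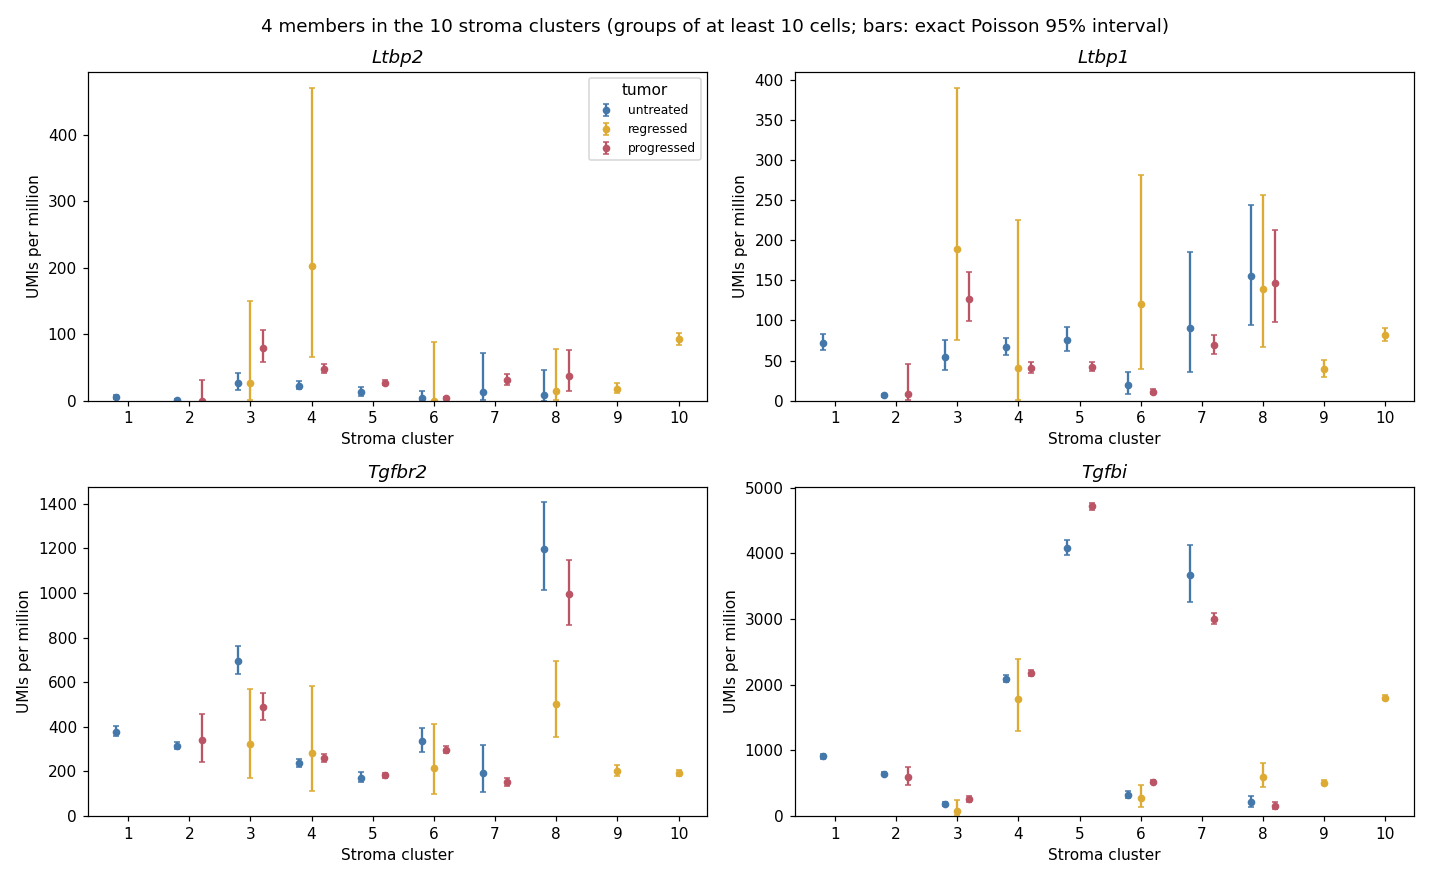
Levels of Ltbp2, Ltbp1, Tgfbr2 and Tgfbi (vertical axes, CPM from 0) in the 10 stroma clusters (horizontal axis) of the untreated, regressed and progressed tumor, for groups of at least 10 cells, with exact Poisson 95% intervals. Tgfbr2 peaks in cluster 8, Tgfbi in cluster 5, and Ltbp2 in clusters 4 and 10 of the regressed tumor, the former with a wide interval from 5 UMIs.

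The share of transcripts that each cell type supplied is given next. Stroma supplied 40.9, 38.2 and 57.5% of the Tgfb1 UMIs but 63.4, 51.8 and 65.3% of all UMIs. Immune cells supplied 42.1, 43.1 and 23.6% of the Tgfb1 UMIs from 20.3, 23.3 and 11.2% of all UMIs. Monocytes1 alone, at 5.06 and 6.64% of the UMIs of the untreated and regressed tumor, gave 18.9 and 16.7% of their Tgfb1 UMIs. Tumor cells gave 21 of 581, 69 of 573 and 34 of 706 Tgfb2 UMIs, with 1.19, 4.80 and 3.12% of all UMIs. For Ltbp2, stroma gave 87.6, 85.2 and 91.1%. In the progressed tumor 52.4% of the Tgfbi UMIs came from Stroma5, with 20.5% of all UMIs.

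**Figure D3:**
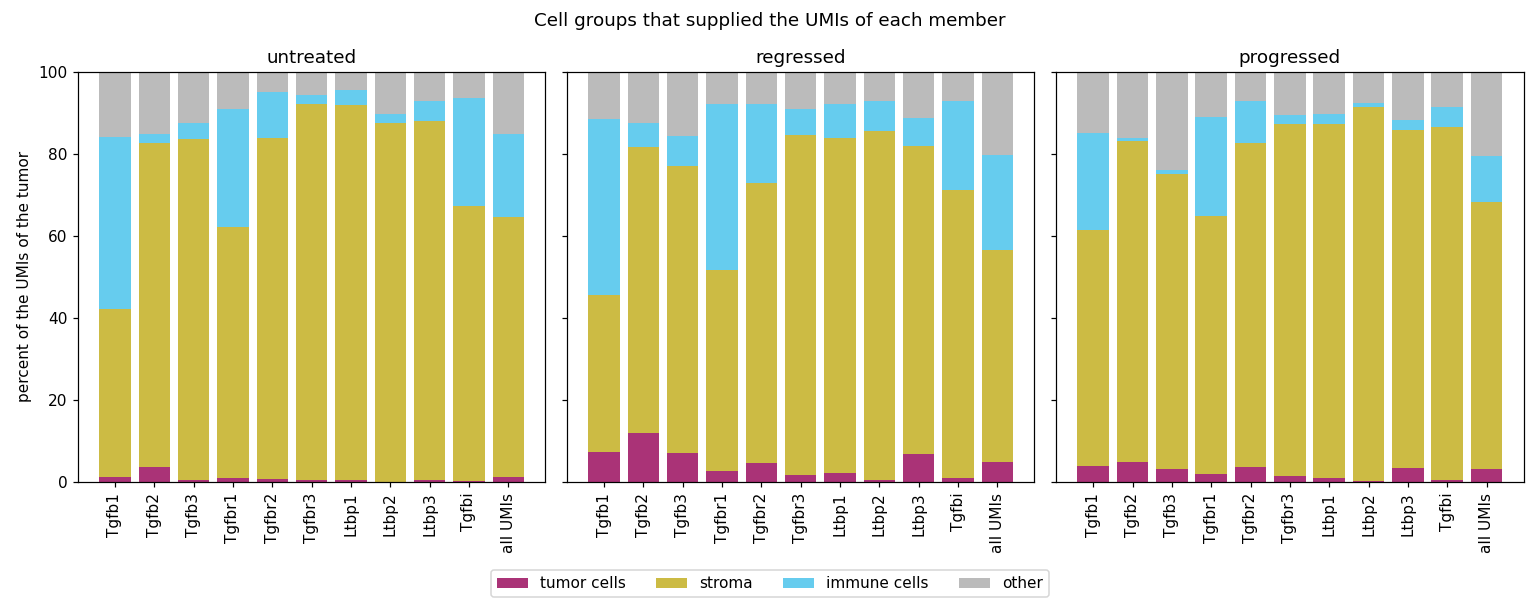
Share of each gene's UMIs (vertical axis, percent) that came from tumor cells, stroma, immune cells and all other clusters in the untreated, regressed and progressed tumor, beside the same shares of all UMIs. Immune cells supply 42.1, 43.1 and 23.6% of Tgfb1 and at most 7.24% of Ltbp2.

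To compare the tumors, cells were summed into tumor cells (Tumor1 and Tumor2), stroma (Stroma1 to Stroma10) and immune cells. Composition differed between the tumors in stroma and in immune cells, so that composition and level within a cell type move together in such sums. Neutrophils gave 33.8, 10.3 and 0.235% of the immune UMIs, and Macrophages 26.9, 9.33 and 42.1%. A gene is said to have risen or fallen between a pair of tumors where its CPM differed at least 2-fold, the exact 95% interval of the ratio excluded 1, and it had at least 20 UMIs in the pair. The 3 comparisons share tumors, so none is independent of the others. Of 13 ratios that passed, 8 involved Ltbp2 or Tgfb2. All ratios below are log2 values with exact intervals that cover counting error only.

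**Figure D4:**
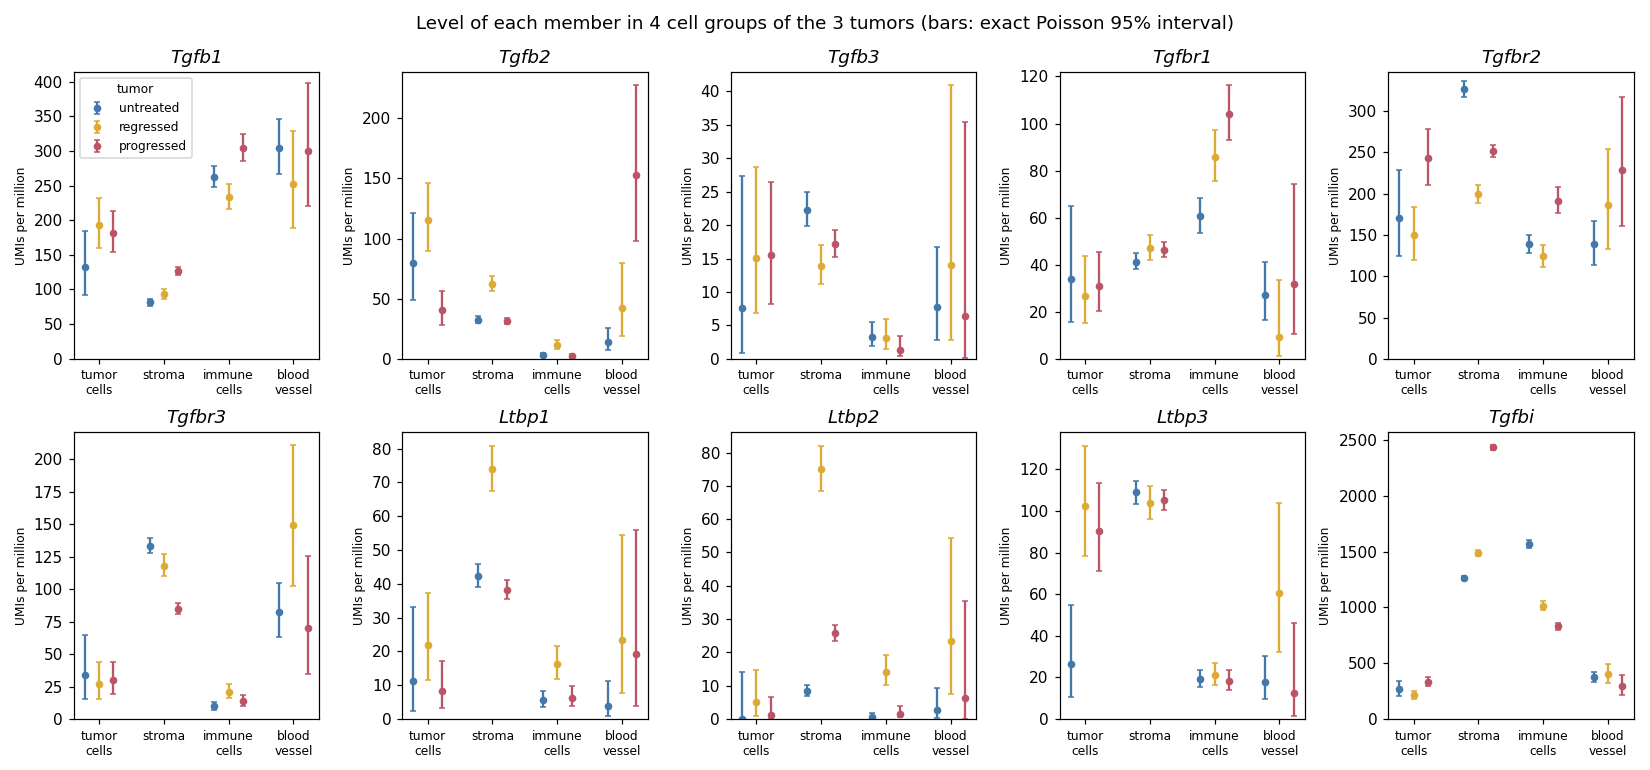
Level of each gene (vertical axes, CPM from 0) in tumor cells, stroma, immune cells and blood vessel cells (horizontal axis) of the untreated, regressed and progressed tumor, with exact Poisson 95% intervals. Ltbp3 in tumor cells is 26.5 in the untreated tumor and 102 and 90.5 in the others, and Ltbp2 in stroma is highest in the regressed tumor at 75.0.

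In tumor cells, 1 of 7 testable genes rose in the regressed against the untreated tumor, where 11.5% of all features did so, and 0 fell (5.62% of all features). That gene was Ltbp3, at 26.5, 102 and 90.5 CPM from 7, 61 and 76 UMIs. The regressed-to-untreated log2 ratio was 1.95 (0.82 to 3.32), and the progressed-to-untreated one 1.77 (0.66 to 3.13). It was therefore also the 1 of 7 genes that rose in the progressed against the untreated tumor (5.44% of all features), and again 0 fell (4.36%). The untreated side rests on 48 cells, and in Tumor1 alone the ratios were 1.77 (0.30 to 3.44) and 1.72 (0.53 to 3.21). Weighting each cell equally took the progressed ratio to 0.93, below 2-fold.

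Tgfb2 fell in tumor cells of the progressed against the regressed tumor, the 1 of 9 testable genes to do so (10.2% of all features), while 0 rose (4.42%). Its levels were 79.6, 116 and 40.5 CPM and its log2 ratio -1.52 (-2.15 to -0.90). Of the 69 regressed UMIs, 62 came from Tumor2, which had 4 cells in each of the other tumors. In Tumor1 alone the ratio was -0.18 (-1.37 to 1.24), which is not past 2-fold. The remaining ligand and receptor ratios of tumor cells stayed under 2-fold or under 20 UMIs. Tgfb1 read 133, 193 and 182 CPM and Tgfbr2 171, 149 and 243 CPM, with a progressed-to-regressed log2 ratio of Tgfbr2 of 0.70 (0.34 to 1.08). Ltbp2 had no UMI in untreated tumor cells, which allows up to 11.4 CPM. Of the Tgfbi UMIs, 20 of 71 in the untreated and 50 of 279 in the progressed tumor lay in a single cell each. The median log2 ratio of the testable genes was -0.19, 0.04 and 0.30 for regressed to untreated, progressed to regressed and progressed to untreated, beside 0.11, -0.08 and 0.03 over all features.

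In stroma, 1 of 10 genes rose in the regressed against the untreated tumor (13.2% of all features) and 0 fell (6.38%). That gene was Ltbp2, at 8.52, 75.0 and 25.8 CPM from 120, 482 and 453 UMIs. The regressed tumor was highest and the intervals did not overlap. The regressed-to-untreated log2 ratio was 3.14 (2.85 to 3.44). From regressed to progressed the change was -1.54 (-1.73 to -1.35), and the progressed-to-untreated ratio was 1.60 (1.30 to 1.90). Ltbp2 was accordingly the 1 gene of 10 that fell in the progressed against the regressed tumor (15.4% of all features), with 0 that rose (4.29%), and the 1 gene that rose in the progressed against the untreated tumor (3.23%), with 0 that fell (5.26%). Stroma3, Stroma4, Stroma6 and Stroma8 had 10 or more cells in all tumors, and with equal weight on each of them the ratios were 1.98, -0.53 and 1.45, in the same order. On the regressed side these clusters held 63 cells and 7 Ltbp2 UMIs, 5 of them in Stroma4. Without Stroma4, an alternative added after the values were seen, the ratios were 0.07, 1.55 and 1.62, so the difference between regressed and progressed turned its direction and that between regressed and untreated came close to 0. How the regressed tumor differed in Ltbp2 within shared clusters could not be determined at this depth. The progressed-to-untreated ratio stayed past 2-fold, but the clusters behind it differed. In the untreated and progressed tumor Stroma3 read 26.7 and 79.8 CPM and Stroma6 4.22 and 3.51 CPM. All 7 progressed Stroma8 UMIs lay in 1 cell. The median log2 ratio of the 10 genes was 0.19, -0.01 and -0.05 for regressed to untreated, progressed to regressed and progressed to untreated, beside 0.14, -0.20 and -0.06 over all features.

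Several other genes came close to 2-fold in stroma. Tgfb2 read 32.6, 62.1 and 31.4 CPM. Its regressed-to-untreated log2 ratio was 0.93 (0.73 to 1.13), and its progressed-to-regressed one -0.98 (-1.17 to -0.79), neither past 2-fold. Ltbp1 had the same order of tumors, at 42.3, 73.9 and 38.3 CPM. Tgfbi read 1267, 1487 and 2433 CPM, a progressed-to-untreated log2 ratio of 0.94 (0.92 to 0.97). Within clusters this ratio was much smaller, 0.06 (0.01 to 0.11) in Stroma4 and 0.21 (0.16 to 0.25) in Stroma5, while Stroma5, where Tgfbi is highest, made up 6.28% of untreated and 22.0% of progressed stroma cells. Tgfbr2 read 327, 199 and 252 CPM and Tgfbr3 134, 118 and 85.0 CPM, both highest in the untreated tumor. Untreated and progressed Tgfbr2 read 236 and 260 CPM in Stroma4 and 172 and 182 CPM in Stroma5. In Stroma3 it read 696 and 488 CPM and in Stroma6 338 and 298 CPM. Stroma1 and Stroma2 (378 and 316 CPM of Tgfbr2, untreated) were 18.0 and 43.5% of untreated stroma cells. The progressed tumor held few or none of them. Tgfb1 read 81.4, 93.2 and 127 CPM (76.8 to 86.3, 85.9 to 101 and 122 to 132). The progressed interval lay above both others, but no Tgfb1 ratio in stroma was past 2-fold. Tgfb3 read 22.3, 13.9 and 17.2 CPM, also without a ratio past 2-fold. Ltbp3 and Tgfbr1 differed little, at 109, 104 and 105 CPM and 41.3, 47.2 and 46.2 CPM, and their regressed-to-untreated log2 ratios were -0.07 (-0.20 to 0.06) and 0.19 (-0.01 to 0.40).

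In immune cells, 4 of 10 genes rose in the regressed against the untreated tumor, where 24.5% of all features did so, and 0 fell (3.55% of all features). These were Ltbp2 with a log2 ratio of 4.41 (2.76 to 6.75), Tgfb2 with 1.98 (1.02 to 3.03), Ltbp1 with 1.55 (0.82 to 2.31) and Tgfbr3 with 1.06 (0.47 to 1.65). All 4 read low in immune cells, Ltbp2 at 0.666, 14.2 and 1.66 CPM and Tgfb2 at 2.89, 11.4 and 1.99 CPM. Under TMM scaling, which moves the median of all features by -0.59 in this comparison, Tgfbr3 came to 0.47 (-0.11 to 1.06) and Ltbp1 to 0.96 (0.23 to 1.72), and Tgfbr3 was also under 2-fold without Monocytes2, at 0.95 (0.33 to 1.56). As a share of their stroma level, Ltbp2 read 7.82, 18.9 and 6.45% and Tgfb2 8.86, 18.4 and 6.34%, beside 6.92 to 8.86, 8.39 to 14.9 and 6.88 to 9.10% for the 5 fibroblast genes. Fibroblast RNA in immune cells thus moved with these ratios, and its part in the result was not tested.

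Against the regressed tumor, 3 of 9 testable genes fell in immune cells of the progressed tumor (15.4% of all features) and 0 rose (3.57%). They were Ltbp2 at -3.10 (-4.79 to -1.76), Tgfb2 at -2.52 (-4.06 to -1.25) and Ltbp1 at -1.37 (-2.22 to -0.57), from 5, 6 and 19 UMIs in the progressed tumor. Between the progressed and the untreated tumor 0 of 7 testable genes rose (8.83% of all features) and 0 fell (5.13%). The genes with many UMIs in immune cells moved by less than 2-fold throughout. Tgfb1 read 262, 234 and 304 CPM, Tgfbr1 60.6, 85.9 and 104 CPM and Tgfbr2 139, 124 and 191 CPM. In these sums, level and the mix of immune clusters cannot be told apart. Tgfbi stood at 1565, 1016 and 831 CPM, the reverse of the order in stroma, with a progressed-to-untreated log2 ratio of -0.91 (-0.98 to -0.85). Within Macrophages that ratio was -0.72 (-0.82 to -0.62) and within Monocytes1 -0.60 (-0.74 to -0.47). The median over the 10 genes of the regressed to untreated ratio was 0.32, against 0.51 over all features.

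**Figure D5:**
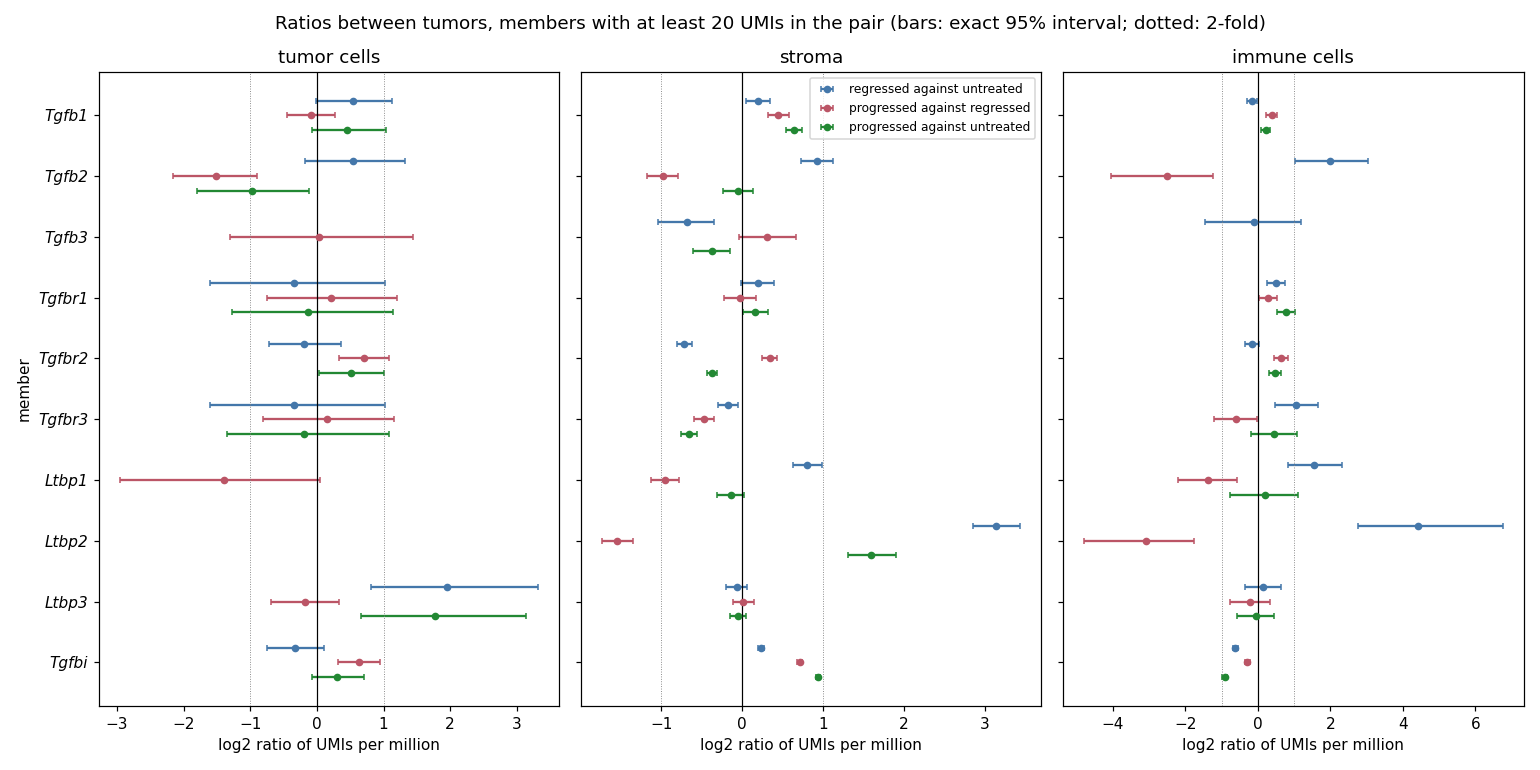
Log2 ratios of CPM between pairs of tumors (horizontal axes) for the 10 genes (vertical axis) in tumor cells, stroma and immune cells, drawn where a pair held at least 20 UMIs, with exact 95% intervals and dotted lines at 2-fold. Ltbp2 in stroma lies at 3.14, -1.54 and 1.60, and the wide bars of immune Ltbp2 and Tgfb2 come from few UMIs.

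Within single clusters, each compared between tumors in which it had at least 20 cells, the same rule was applied. Ltbp2 rose in the progressed against the untreated tumor in 3 of 5 clusters in which it was testable, Stroma3 at 1.58 (0.76 to 2.46), Stroma4 at 1.08 (0.65 to 1.54) and Stroma5 at 1.07 (0.34 to 1.89), where 7.01, 7.0 and 4.97% of all features passed 2-fold in either direction. Tgfb2 rose in the same comparison in Bloodvessel at 3.44 (2.35 to 4.61), Stroma5 at 1.25 (0.63 to 1.94) and Stroma3 at 1.22 (0.40 to 2.08), although its level in stroma as a whole was 32.6 and 31.4 CPM. It fell in Dividing cells, from 61.8 to 12.4 CPM, a log2 ratio of -2.31 (-3.18 to -1.47), and read 28.4 and 15.8 CPM in Stroma4 of these tumors. Stroma3, the cluster with the most Tgfbr2 after Stroma8, also held more Tgfbr1 at 1.45 (0.68 to 2.27) and Ltbp1 at 1.21 (0.62 to 1.83) in the progressed tumor. Tgfb3 fell in Stroma6 at -1.59 (-2.21 to -0.92), and at -1.02 (-1.77 to -0.19) without the cell of each tumor that held most of its UMIs. Tgfb1 passed in 1 contrast over all clusters, the rise in Monocytes1 of the progressed against the regressed tumor, 1.26 (0.98 to 1.53), where 13.9% of all features passed. Tgfbr2 fell in the same cells and comparison, at -1.21 (-2.26 to -0.29). In Neutrophils of the regressed against the untreated tumor Tgfbr1 rose by 1.25 (0.17 to 2.24) and Ltbp3 by 1.65 (0.18 to 3.03), where 27.0% of all features passed. Ltbp3 read 8.55 and 26.9 CPM in untreated and regressed Neutrophils, from 13 and 8 UMIs, beside 109 and 104 CPM in stroma. Without the cell of each tumor that held most of its UMIs, 11 and 6 UMIs were left, too few to be testable. Tgfbi passed in none of the stroma clusters. In Dividing cells it read 672, 282 and 1472 CPM and passed in all 3 comparisons, with the regressed tumor lowest and the progressed tumor highest, where 18.4, 16.1 and 10.1% of all features passed. A single cell held 104 of 348 untreated and 29 of 58 regressed UMIs. Without the top cell of each tumor the levels were 495, 180 and 1431 CPM, and all 3 ratios still passed. Median depths there were 11361, 889 and 11402 UMIs. The cluster is named for division, so its cell types may differ between tumors. In NK_T cells Tgfbi rose from 82.6 CPM in the untreated to 229 CPM in the regressed tumor, where 13.1% of all features passed. These NK_T values are 6.52 and 15.4% of the stroma level, beside 11.8 to 16.5 and 7.35 to 13.5% for the 5 fibroblast genes in the same cells, and neither was above the fibroblast genes by its lower bound.

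The blood vessel cells, few in number (74, 48 and 28 cells), are given by value. In the progressed-to-untreated comparison 10.2% of all features passed 2-fold in these cells. Beside the rise of Tgfb2, Ltbp3 read 18.0, 60.6 and 12.7 CPM from 14, 13 and 2 UMIs. Tgfbr1 read 27.0, 9.33 and 31.8 CPM from 21, 2 and 5 UMIs. Tgfbr2 read 139, 187 and 229 CPM from 108, 40 and 36 UMIs. For both genes the intervals of the tumors overlapped. The Tgfb2 value of the progressed tumor rests on 24 UMIs.

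To set shares of cells side by side, each cell was thinned to 1000 UMIs, leaving out shallower cells. Tgfb1 was then found in 38.8%, 25.5% and 55.1% of Monocytes1 cells (32.3 to 45.6%, 19.4 to 32.5% and 40.2 to 69.3%, exact Clopper-Pearson), in the same order as its CPM, with 6, 13 and 4 shallower cells left out. Without thinning, the shares of these cells were 75.1, 54.3 and 77.4%. In Erythrocytes of the regressed tumor, where haemoglobin dilutes other RNA, 1.75% of 57 thinned cells held Tgfb1 and 15.8% held Tgfbi. Ltbp2 was found in 0.962%, 7.50% and 3.12% of thinned stroma cells, with 29, 185 and 22 cells left out (3.69, 18.2 and 9.50% without thinning). In Erythrocytes of the regressed tumor 1 of 57 thinned cells held Ltbp2. In the untreated tumor Ltbp2 read 8.52 CPM in stroma and 0.666 CPM in immune cells. Tgfbi was found in 96.4% and 96.5% of Stroma5 cells of the untreated and progressed tumor, and in 99.4 and 99.9% without thinning. For tumor cells, thinning left 45 of 48, 166 of 410 and 155 of 160 cells, with Tgfb2 in 11.1%, 10.2% and 5.16%, with intervals that overlapped (16 of 48, 56 of 410 and 24 of 160 cells without thinning).

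Beyond the 10 genes, 38 other genes of the pathway were read by the same rule. In stroma, 2 of 37 testable genes rose and 7 fell in the regressed against the untreated tumor, where 13.2% of all features rose and 6.38% fell. In the progressed against the regressed tumor 10 rose and 3 fell (4.29 and 15.4% of all features), and in the progressed against the untreated tumor 6 rose and 1 fell (3.23 and 5.26%). Of the 8 responsive genes, 4 fell in the regressed against the untreated tumor, 4 rose in the progressed against the regressed tumor and 2 rose in the progressed against the untreated tumor. Fibronectin (Fn1) fell from 863 to 353 CPM between the untreated and the regressed tumor, and the feedback inhibitor Pmepa1 from 82.2 to 38.3 CPM. Among anchors and activators, Lrrc32, a membrane anchor of latent ligand, read 47.0, 22.6 and 103 CPM, Fbn2, a fibrillin, 186, 101 and 482 CPM, and Thbs1, a thrombospondin that activates latent ligand, 232, 125 and 543 CPM, and all 3 rose in the progressed tumor against both others. The median regressed-to-untreated log2 ratio of the testable pathway genes was -0.37, beside 0.14 over all features, and the median progressed-to-regressed one was 0.46, beside -0.20. The responsive genes were chosen as known targets, and none of these lists was tested as a set.

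In tumor cells, 6 of 28 testable pathway genes rose and 6 fell in the regressed against the untreated tumor, where 11.5% of all features rose and 5.62% fell. In the progressed against the regressed tumor 4 of 33 rose and 1 fell (4.42 and 10.2% of all features), and in the progressed against the untreated one 6 of 31 rose and 3 fell (5.44 and 4.36%). The matrix protein Emilin1 rose from 53.0 CPM in the untreated to 285 CPM in the regressed tumor. Fn1 read 640.3, 242 and 84.6 CPM and fell in both steps. Tagln, a smooth muscle actin-binding protein, had 0, 1 and 109 UMIs (0, 1.68 and 129.8 CPM). In immune cells 7 of 35 rose and 2 fell in the regressed against the untreated tumor (24.5 and 3.55% of all features). In the progressed against the regressed tumor 3 of 34 rose and 4 fell (3.57 and 15.4%), and in the progressed against the untreated one 3 of 34 rose and 1 fell (8.83 and 5.13%). The numbers that rose in the first and the last of these comparisons lie near the shares of all features. Smad7, the inhibitory SMAD of the pathway, read 32.9, 80.0 and 72.1 CPM there, and Thbs1 372, 311 and 114 CPM.

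The features whose levels over the 53 groups were most like each gene were taken from 10477 features with at least 500 UMIs, by Pearson correlation of log2(CPM + 1). Tgfb1 was most like Card19 (r = 0.77), Msn (0.75) and Arpc3 (0.74), and Tgfb2 like Rbfox2 (0.83), Tnks1bp1 (0.82) and Zcchc14 (0.81). Tgfb3 lay nearest to Sardh (0.75), Pik3r3 (0.74) and Armcx4 (0.71). For the receptors these were Taok3 (0.81), Tmem160 (0.80) and P2rx4 (0.79) with Tgfbr1, Nrp1 (0.79), Sel1l (0.77) and Timp2 (0.75) with Tgfbr2, and Tns2 (0.86), Lamb2 (0.84) and Nid1 (0.82) with Tgfbr3. Ltbp1 was nearest to Egfr (0.83), Tnxb (0.81) and Scara3 (0.75), Ltbp2 to 5430405H02Rik, Lvrn and Ecm2 (0.70 each) and Ltbp3 to Sh3pxd2a (0.83), Cald1 (0.83) and Tln2 (0.80). Tgfbi had no close neighbour, with Pilra, Tec and Xkr7 at 0.62 each. The groups share libraries and depth, so these values describe likeness over clusters only.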

How the data were processed

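Single cells of 3 tumors were profiled with the 10x 3′ v2 kit. Per the study's methods, the authors aligned reads to GRCm38 with GSNAP, kept uniquely mapping reads in sense orientation over exons, counted UMIs and excluded cells under a minimum of UMIs. The deposited values are counts of UMIs per gene (Entrez ID) and cell. Cluster names of each cell, another kind of value, came from the deposited cell table, made with Seurat 2.2.0. Column sums exceeded the deposited totals by 4.42 to 6.09%. Of 36530 features, 31049 matched a RefSeq symbol. Cells carried names rather than barcodes, and 0 names were shared between libraries. No doublets were removed here, and none are stated to have been removed.

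Counts were summed per cluster, or per tumor cells, stroma and immune cells, and divided by all UMIs of the sum (CPM). Intervals are exact at 95% (Poisson, Clopper-Pearson, conditional binomial for ratios). With 1 tumor per group no test was made. UMIs come from the 3′ end, so levels were not compared between genes. Alternatives were TMM scaling (edgeR 4.0.16), deposited totals, thinning to 1000 UMIs (500 for shares of cells), equal weight per cell, sums without haemoglobin genes or without the 5% deepest cells, other cluster choices, a fold of 1.5 and at least 5 UMIs, and, added after seeing the data, leaving out Stroma4 or the cell with most UMIs of a gene. Scripts were tested on simulated counts. Named pathway genes passed 2-fold with at least 50 CPM in either tumor, at most 4 per cell group and comparison by size, and the 3 nearest features were named per gene. An allele shared by all groups and a pathway gene are not reported here by name. The members and lists were chosen with earlier results of these data known. Promoters are from RefSeq on GRCm38.p6, which held 8 of the 10 genes.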

Additional observations from a re-analysis of the deposited data

Results flagged for a closer look

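Tgfbi moved in opposite directions in stroma and immune cells between the progressed and the untreated tumor. The log2 ratio was 0.94 in stroma, from 1267 to 2433 CPM, and -0.91 in immune cells, from 1565 to 831 CPM. It was picked out because both ratios passed 1.5-fold with intervals that exclude 0 on the log2 scale, a limit chosen after the values were seen. The difference between these ratios was not tested, since each group is 1 tumor. Under TMM scaling the stroma ratio had an interval of 0.98 to 1.03 and the immune ratio was -1.18 (-1.25 to -1.12). In the 4 stroma clusters shared by all tumors, weighted equally, the stroma ratio was 0.15, while without Monocytes2 the immune ratio was -0.74 (-0.81 to -0.67). No other gene of the 10 was picked out by this limit.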

How the results depend on the processing

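No paired analysis was possible because each group held 1 tumor, and for the same reason no replicate could be left out. All 13 ratios that passed 2-fold kept their direction in the 7 planned settings that recompute a ratio. Of them 13 still passed with deposited totals, without haemoglobin genes and without the 5% deepest cells, 12 with equal weight per cell, 11 under TMM scaling, 10 with the other cluster choices and 5 after thinning, which leaves fewer UMIs. Counts of genes past 2-fold (in either direction) moved by over 1.5 times as follows. In tumor cells, regressed against untreated (1 gene) became 0 after thinning and 2 with equal weight. Progressed against regressed (1) became 3 at 1.5-fold, 0 after thinning, 0 in Tumor1 alone and 3 with equal weight. Progressed against untreated (1) became 2 at 1.5-fold and 0 after thinning. In stroma, regressed against untreated (1) became 5 at 1.5-fold and 2 both after thinning and in shared clusters. Progressed against regressed (1) became 4 at 1.5-fold and 2 under TMM scaling, after thinning, without the deepest cells and with equal weight. Progressed against untreated (1) became 4 at 1.5-fold and 2 under TMM scaling. In immune cells, regressed against untreated (4) became 2 after thinning, and progressed against regressed (3) became 5 at 1.5-fold and 0 after thinning. Progressed against untreated (0) became 2 at 1.5-fold and 1 under TMM scaling, after thinning and without Monocytes2. Apart from the fewer UMIs and cells that thinning and Tumor1 alone leave, and the wider reach of a 1.5-fold limit, the cause was not tested. TMM scaling moved the median log2 ratio of all features by over 0.1 in several comparisons, namely -0.25 and 0.31 in stroma (regressed to untreated, progressed to regressed). For immune cells the shifts were -0.59, 0.32 and -0.27. For tumor cells they were 0.13 and 0.10 (progressed to regressed, progressed to untreated). After the data were seen, Ltbp2 in stroma was also taken over shared clusters without Stroma4, where progressed to regressed was 1.55, the reverse of -1.54, and each ratio past 2-fold without the cell that held most UMIs of the gene. In that setting all 13 still passed, and of 36 ratios past 2-fold in single clusters 36 kept their direction and 28 still passed, 5 had under 20 UMIs left and 3 came under the limit. Tumor cells were few in the untreated tumor (48) and shallow in the regressed one (a median of 832 UMIs), which limits what their values can show.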
